A study of Mus musculus with 4 samples.

Results

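Endothelial cells of the mouse embryo that carried UMIs of several of the genes Pdlim3, Ednrb, Tnni1, Fst, Gata4 and Tbx20 were picked out of single-cell RNA profiles of the aorta-gonad-mesonephros (AGM) region. Each UMI, a random barcode on the captured RNA, was counted as 1 molecule. A cell entered the set if it had at least 1000 genes, under 10% mitochondrial UMIs, at least 1 UMI of Cdh5, which encodes the adhesion protein VE-cadherin of endothelial cells, and at least 1 UMI of each of at least 3 of the 6 genes. In all, 468 of the 18576 Cdh5 cells met this rule, out of 20836 cells that passed the filters and 31521 barcodes. They are called the selected cells here, and the remaining 18108 Cdh5 cells are the other Cdh5 cells. The working name of the set was endocardial-like, and the marker check given further on goes partly against that name.

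The study sorted CD31+/CD45- cells, a surface profile of endothelium without mature blood cells, from the AGM of age-matched wild-type (WT) and miR-223-/- (KO) mouse embryos at embryonic day 10.5, with a viability above 85% as labelled. There were 2 libraries of each genotype, made with the 10x Genomics 3' kit, version 3. The sources do not state whether the libraries of a genotype came from separate embryos or litters, nor how many embryos were pooled, so every p-value here reflects how these libraries vary, some of which may be technical. No strain or allele beyond the miR-223 genotype is given. The level of miR-223 itself was not analysed here, so the genotype labels were not checked against the deleted gene.

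The endocardium is the endothelium that lines the heart, and at midgestation part of it loses its endothelial character and forms the cushions from which the valves arise. Its known regulators include the zinc-finger factors Gata4, Gata5 and Gata6, the calcium-dependent factor Nfatc1, the T-box factor Tbx20 and the basic helix-loop-helix factor Hand2. Gata4 is also known in the sinusoidal endothelium of the liver, which lies close to the heart and the sinus venosus in the embryo. Among the other genes of the rule, Ednrb encodes the endothelin receptor type B, Fst the secreted activin antagonist follistatin, Pdlim3 an actin-associated PDZ-LIM protein of muscle, and Tnni1 the slow skeletal form of troponin I.

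The deleted microRNA pairs with messenger RNAs through its seed, shown in capitals in the mature sequence of the guide strand (RefSeq, GRCm38.p6, chrX:96242884-96242905, plus strand).
mmu-miR-223-3p: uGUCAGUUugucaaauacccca
The match to that seed, AACTGAC, was searched in the annotated 3' UTRs of GENCODE M21 on the transcript strand. None of the 6 rule genes carried it, which is 0 of 6. Of the 25 genes that led the selected cells, 2 carried it (8.0%), against 9.47% of all 21738 genes with an annotated 3' UTR. These were Igfbp5, which encodes a secreted binding protein of insulin-like growth factors, and Maf, a transcription factor of sinusoidal endothelium and macrophages. Their sites are shown with the match in capitals, since they are the places where the lost microRNA could pair with leading genes of these cells.
Igfbp5 site: gagagcaaagaAACTGACgtgcgtcgact
Maf site: gacccatttaaAACTGACacaaattcctg

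Promoter windows from RefSeq (GRCm38.p6, 250 bases before to 50 bases after the start) were found for 4 of the 6 rule genes, Pdlim3, Ednrb, Tnni1 and Tbx20. They were searched on both strands for the T-box letters AGGTGT and for the GATA letters AGATAA and TGATAA, since Tbx20 and Gata4 belong to these factor families. The T-box letters were present in 2 of the 4 genes, Pdlim3 and Tnni1, against 15.7% of all 27025 genes with a window. None of the 4 held the GATA letters, against 21.0% of all genes. A match is a description of the letters and not a binding site. The windows with the T-box match in capitals are as follows.
Pdlim3 promoter, chr8:45885237-45885536, plus strand: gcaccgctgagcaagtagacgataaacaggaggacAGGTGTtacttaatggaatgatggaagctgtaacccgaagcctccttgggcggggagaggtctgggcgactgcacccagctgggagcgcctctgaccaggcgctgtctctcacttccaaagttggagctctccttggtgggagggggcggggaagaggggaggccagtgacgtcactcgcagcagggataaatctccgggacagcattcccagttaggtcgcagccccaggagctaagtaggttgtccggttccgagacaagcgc
Tnni1 promoter, chr1:135799171-135799470, plus strand: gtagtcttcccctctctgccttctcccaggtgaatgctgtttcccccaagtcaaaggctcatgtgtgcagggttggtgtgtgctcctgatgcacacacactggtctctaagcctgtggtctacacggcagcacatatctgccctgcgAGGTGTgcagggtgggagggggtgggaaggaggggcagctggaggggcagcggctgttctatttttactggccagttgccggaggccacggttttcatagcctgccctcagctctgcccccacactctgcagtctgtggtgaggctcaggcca

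Where 4 values follow each other below, they belong to WT replicate 1, WT replicate 2, KO replicate 1 and KO replicate 2, in that order. The libraries held 3917, 11186, 6119 and 10299 barcodes with 95158639, 181682389, 109713066 and 167542930 UMIs. Between 8 and 28 cell barcodes were shared by any pair of libraries. WT replicate 1 was the deepest, with a median of 30713 UMIs per cell that passed the filters against 18961 to 20650 in the other 3 libraries. KO replicate 1 stood apart in Xist, the RNA of the inactive X chromosome, with 0 CPM in its selected cells against 195 to 320 CPM in those of the other 3 libraries, while the Y-linked Kdm5d was present in the selected cells of all 4 (5.95 to 12.4 CPM). CPM is the count of a gene per 1000000 UMIs of the summed cells.

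Of the 468 selected cells, 93 came from WT replicate 1, 183 from WT replicate 2, 80 from KO replicate 1 and 112 from KO replicate 2. They were deeper than the other Cdh5 cells of their own library. Their median was 42210 UMIs against 31316.5 in WT replicate 1, 20900 against 19223 in WT replicate 2, 22271.5 against 21070 in KO replicate 1 and 24944.5 against 19791 in KO replicate 2. A scoring against simulated doublets called 64 of the 468 selected cells. The called share was 10.8%, 14.8%, 6.25% and 19.6% in the 4 libraries, against 3.2%, 9.32%, 5.77% and 8.43% of the other Cdh5 cells. Doublets were kept, as the rule has no doublet step. Their part in the results was not tested beyond leaving the called cells out.

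The selected cells made up 4.58% of the Cdh5 cells in WT replicate 1 (95% exact Clopper-Pearson interval 3.72 to 5.59%) and 2.58% in WT replicate 2 (2.22 to 2.98%). In KO replicate 1 they were 2.25% (1.79 to 2.80%) and in KO replicate 2 they were 1.90% (1.56 to 2.28%). The intervals cover counting error only. Both KO libraries lay below both WT libraries, with means of 2.08% ± 0.253 (SD, n = 2) in KO and 3.58% ± 1.42 (SD, n = 2) in WT. The difference of -1.51 percentage points had a two-sided exact permutation p of 0.333, the smallest that 2 libraries against 2 can give. WT replicate 1 carried most of it, and without that library the difference was -0.504 points.

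The share depended on the depth at which the cells were read. With every cell cut down by random draw to 5000 UMIs before the rule was applied, Cdh5 included, the share was 0.527%, 0.582%, 0.471% and 0.526%. The difference was then -0.0565 points (exact permutation p = 0.333), and the intervals of the 4 libraries overlapped. Between 20 and 129 Cdh5 cells per library had under 5000 UMIs and were left out of the thinned shares. Only 9, 36, 14 and 27 cells met the thinned rule in the same order, so smaller differences were not detectable at this depth.

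**Figure D1:**
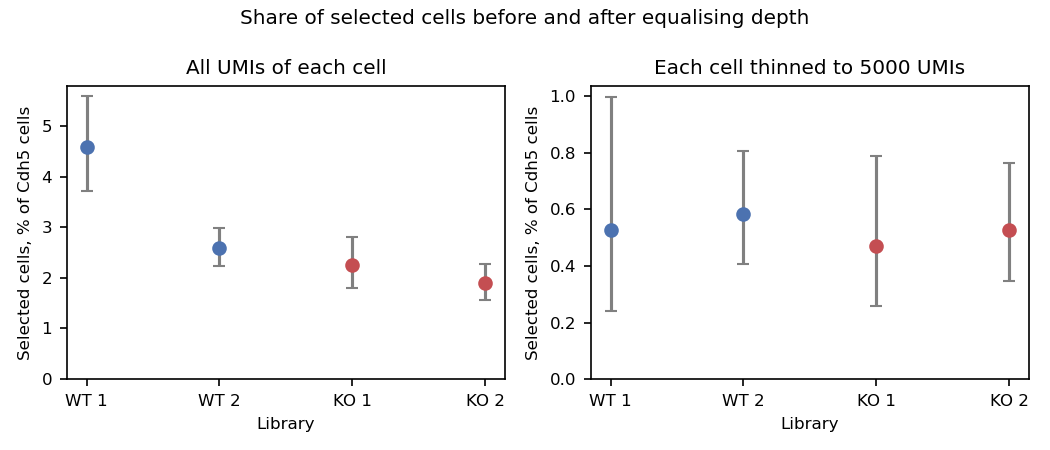
Selected cells as a percentage of Cdh5 cells in each library (WT blue, KO red), from all UMIs (left) and after thinning each cell to 5000 UMIs (right), with 95% exact binomial intervals as bars. WT replicate 1 stands at 4.58% on the left and at 0.527% on the right, within the intervals of the other libraries.

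Each of the 6 rule genes was far higher in the selected than in the other Cdh5 cells of each library. These values describe how the cells were chosen and support nothing. Gata4 stood at 66.9, 87.4, 84.4 and 70.2 CPM in the selected cells, against 3.0 to 5.95 CPM in the other Cdh5 cells. Tbx20 reached 6.18, 24.2, 16.3 and 24.5 CPM against 0.0468 to 0.149 CPM. It was lowest in WT replicate 1, and it was the scarcest of the 6 in each library but KO replicate 1, where Fst was lower. The endothelin receptor gene Ednrb was the most abundant, at 166, 255, 222 and 200 CPM against 15.3 to 23.9 CPM.

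Pdlim3 was at 60.7, 80.4, 98.0 and 103 CPM against 1.28 to 1.77 CPM. Tnni1 was at 26.3, 57.3, 27.7 and 50.6 CPM against 1.5 to 4.84 CPM. Fst was at 25.4, 51.2, 11.8 and 31.6 CPM against 0.288 to 1.79 CPM, and replicate 1 was the lower of the pair in each genotype for both genes. The Fst level leaned on few cells, since a single cell gave 18.9% to 42.3% of its UMIs, depending on the library.

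The rule was met with few genes in most cells. Of the 468, 280 carried 3 of the 6 genes, 119 carried 4, 57 carried 5 and 12 carried all 6, while 878 further Cdh5 cells carried 2. Cells just inside the limit had 53.9, 73.2, 86.2 and 62.1 CPM of Gata4, and cells just outside had 26.3, 39.9, 36.4 and 39.1 CPM. For Tbx20 the cells with 3 genes had 2.29, 7.59, 5.14 and 5.02 CPM and those with 2 genes 0.958, 0.582, 1.83 and 1.76 CPM. Cells with 2 genes lay between the selected cells and the bulk of the other Cdh5 cells in both genes. Gata4 and Tbx20 count toward the number of genes, so this order describes the grouping and nothing is read from it.

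**Figure D2:**
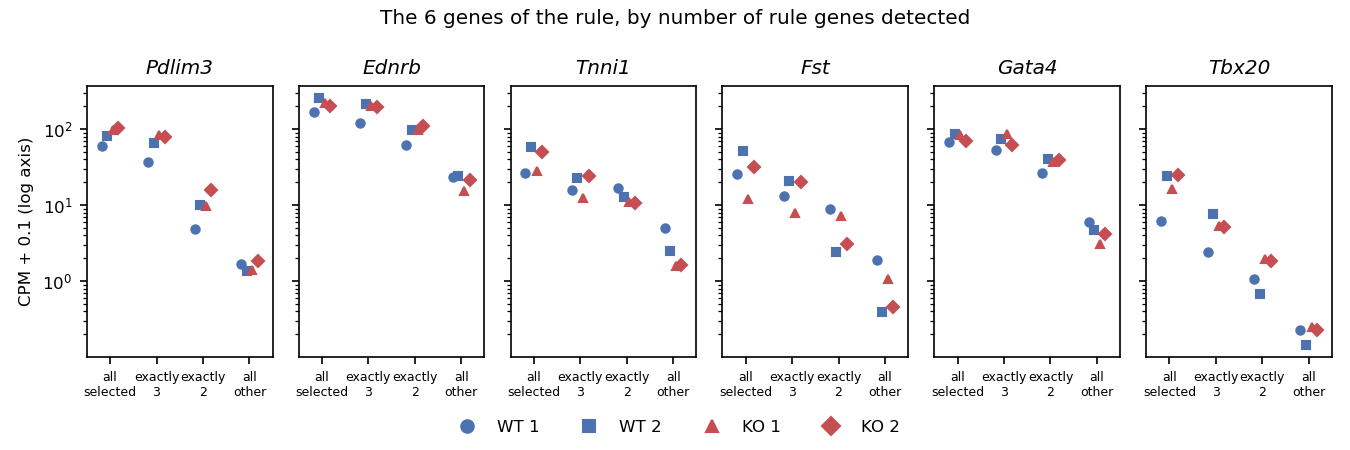
Level of each rule gene (CPM + 0.1, log axis) in each library (WT blue, KO red) for all selected cells, cells with exactly 3 or exactly 2 of the 6 genes, and all other Cdh5 cells. Gata4 was at 66.9 to 87.4 CPM in all selected cells and at 26.3 to 39.9 CPM in cells with 2 genes. The sets are defined by UMIs of these genes, so the order of the levels describes that grouping.

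The genes of the rule were also looked at with each gene's own part in the rule taken out, by choosing cells on at least 3 of the other 5 genes. Of the cells so chosen, Gata4 was detected in 68.9%, 70.3%, 67.7% and 72.6%, against 5.12% to 9.27% of the remaining Cdh5 cells. At 5000 UMIs per cell these shares were 28.9%, 38.6%, 29.0% and 28.8%, against 1.69% to 3.51%. Tbx20 was detected in 12.4%, 26.2%, 23.7% and 34.3% of the cells chosen by the other genes, against 0.260% to 0.515% of the rest. Germ cell-like cells without Cdh5, which should lack both genes, had a Gata4 UMI in 0 to 4.0% of cells and no Tbx20 UMI in the 226 cells of the 4 libraries. Pdlim3 was detected in 23.5% to 53.3% of these germ cell-like cells, above its share in the other Cdh5 cells (1.87% to 3.41%).

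The selected cells were next compared with the other Cdh5 cells gene by gene, as a description, since the rule chose the cells on this contrast. At least 2-fold in each of the 4 libraries, on CPM plus 5, 94 of 22926 genes differed (0.41%), 58 of them higher (0.253%) and 36 lower (0.157%). Counted without a limit on the fold, 11.2% of the genes were higher in each library and 18.1% lower. The counts of the gene lists below stand beside these shares and nothing is read from them.

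Genes of sinusoidal endothelium were among those that led the selected cells, and 5 of the 8 on that list (Oit3, Stab2, Lyve1, Mrc1 and Maf) were higher in each library. Oit3, a secreted protein gene marked in liver sinusoids, was at 238, 155, 216 and 115 CPM, against 21.8 to 41.2 CPM in the other Cdh5 cells. Gpr182, an atypical chemokine receptor of sinusoids, was at 154, 110, 123 and 79.4 CPM against 16.8 to 31.1 CPM. Maf was at 92.1, 78.1, 49.9 and 59.2 CPM against 12 to 20.4 CPM. All 3 were highest in WT replicate 1, and in each library the selected cells lay above the others.

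With the genes of the rule left out of the ranking, the first gene was Igfbp5, at 101, 89.3, 155 and 103 CPM against 8.20 to 16.5 CPM. Apoe, which encodes a lipid carrier, was at 625, 1037, 789 and 846 CPM against 140 to 173 CPM. Fbn1, which encodes the microfibril protein fibrillin-1, was at 58.4, 89.3, 64.9 and 77.0 CPM against 11.9 to 16.3 CPM. Bmp2, a ligand known from the signals that start cushion formation, was at 55.2, 48.1, 36.7 and 32.5 CPM against 8.59 to 14.3 CPM. The other genes that led the list by the rule for named genes were Dpp4, Ccdc80, Ehd3, Sost, Col3a1, Gsg1, Cd59a, Fabp5, Meis2, Aqp1, Colec12, Lgals1, Tmem2, Pdlim1, Gatm, Mbnl3, Bace2 and Emb.

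On the lower side were all 8 genes of the neural capillary list and 3 of the 6 of the sprouting list, in each library. Vwa1, an extracellular matrix protein gene, was at 7.56, 9.24, 1.36 and 13.5 CPM in the selected cells against 47.1 to 64.1 CPM in the others. Slc2a1, the glucose transporter of barrier capillaries, was at 103, 70.2, 85.3 and 78.8 CPM against 256 to 269 CPM. Hey1, a Notch target of arterial endothelium, was at 12.4, 15.8, 5.90 and 12.6 CPM against 40.6 to 48.8 CPM. The embryonic globin gene Hba-x was at 37.1, 6.93, 39.9 and 3.37 CPM against 68.9 to 1267 CPM, and replicate 1 was the highest of each genotype in both sets of cells. The remaining genes on this side were Col15a1, St8sia4, Sparcl1, D030007L05Rik, Bok, Pdgfb, Itga1, 8430408G22Rik, Abca1, Cdh2 and Tmsb4x.

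The endocardial transcription factors gave a divided picture. Of 17 such genes, 6 were higher in the selected cells of each library (Nfatc1, Gata5, Gata6, Hand2, Foxc2 and Smad6) and 3 were lower (Foxc1, Isl1 and Mef2c), with a median log2 ratio of 0.37 beside -0.00 over all genes with a UMI. Nfatc1 was at 25.4, 49.2, 27.7 and 36.2 CPM against 9.33 to 11.1 CPM. Gata6 was at 23.4, 39.1, 29.9 and 39.3 CPM against 9.07 to 11.5 CPM. Gata5 was at 2.29 and 15.1 CPM in WT and 4.08 and 18.1 CPM in KO, against 0.107 to 0.260 CPM, so replicate 1 was low in both genotypes. Hand2 showed the same order, at 7.79, 29.0, 9.07 and 35.3 CPM against 1.05 to 3.78 CPM.

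The homeobox gene Irx5 and the T-box gene Tbx5 were low in WT replicate 1 alone. Irx5 was at 5.04, 29.0, 21.8 and 39.3 CPM against 2.33 to 5.07 CPM, so in WT replicate 1 the selected cells did not exceed the other Cdh5 cells. Tbx5, known in the sinus venosus and the atria, was at 1.83, 22.3, 10.4 and 20.2 CPM against 0.228 to 0.881 CPM.

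Of 20 endocardial surface and secreted genes, 10 were higher in each library and 3 lower. Summed over the list, the selected cells were lower in each library. They had 1392, 1559, 1634 and 1559 CPM against 1890 to 2026 CPM in the others. Nrg1, the neuregulin that the endocardium sends to heart muscle, was at 2.75, 18.7, 15.4 and 18.7 CPM against 0.693 to 1.57 CPM. Npr3, the clearance receptor of natriuretic peptides, was at 17.4, 101, 36.7 and 61.7 CPM against 17.5 to 27.9 CPM, and in WT replicate 1 it was level with the other Cdh5 cells. Edn1, the ligand gene of the endothelin receptors, was at 39.2, 53.8, 68.9 and 63.2 CPM against 26.1 to 33.5 CPM. Emcn, a mucin-like protein gene of veins and endocardium, was lower, at 457, 389, 442 and 460 CPM against 826 to 849 CPM.

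Several defining genes of heart muscle were at or near 0. Of 18 cardiomyocyte genes, 4 had no UMI in any selected cell (Myh7, Nppa, Nppb and Myl3), and Nkx2-5 and Myl2 had at most 0.21 CPM. Summed over the list, the selected cells had 30.2, 35.7, 76.2 and 85.9 CPM against 20.4 to 24.6 CPM in the others. In the KO libraries single cells weighed on this sum, since 104 of the 112 UMIs of Actc1 in KO replicate 1 and 104 of the 105 UMIs of Ttn in KO replicate 2 came from 1 cell each. In WT replicate 2 the list's Tbx5 gave 106 UMIs spread over 50 cells, and Actc1 gave 4. The sum of the arterial list was lower in the selected cells of each library (413 to 504 CPM against 598 to 693 CPM), as 11 of its 12 genes were. Of 15 pan-endothelial genes, 10 were lower and 2 higher. Their sum was 2664 to 3222 CPM against 3390 to 3756 CPM.

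Other genes of the pathways of the rule genes were counted in the same way. Of the 7 genes of the endothelin pathway, Ednrb, Edn1 and Ednra were higher in each library, while the converting enzyme gene Ece2 had no UMI in selected cells. Among 8 GATA factors and partners, Gata4, Gata5, Gata6, Zfpm1 and Zfpm2 were higher in each library. Zfpm1, a GATA cofactor, was at 37.6, 56.7, 43.1 and 45.1 CPM against 20.4 to 24.0 CPM. Of the 9 T-box factors, 2 were higher and 1 lower, the latter being Tbx1 at 2.27 to 10.5 CPM against 17.9 to 28.8 CPM. In the list of follistatin, activins and BMPs, 11 of 25 genes were higher and 4 lower, and the activin subunit gene Inhba had at most 1.68 CPM. Within the PDZ-LIM family, Pdlim1 was higher beside Pdlim3, at 59.3, 66.6, 68.0 and 70.2 CPM against 17.0 to 26.1 CPM, while Pdlim5 was lower, at 45.6 to 49.9 CPM against 55.0 to 66.5 CPM.

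Hox genes, which are read out in order along the body axis, were followed by paralog group. Hoxa5 was at 64.8, 48.3, 54.0 and 46.3 CPM in the selected cells against 23.7 to 28.2 CPM in the others, and Hoxa4 at 20.4, 21.0, 17.7 and 15.6 CPM against 7.27 to 9.58 CPM. Hoxb8 was lower, at 9.16, 5.88, 9.07 and 12.6 CPM against 25.8 to 32.6 CPM. Hoxa9 was also lower, at 12.4, 9.45, 7.26 and 16.6 CPM against 25.8 to 31.0 CPM. In paralog groups 1 to 4, 4 of 11 genes were higher in each library and 2 lower, in groups 5 to 8 it was 1 and 7 of 11, and in groups 9 to 13 it was 0 and 7 of 16.

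**Figure D3:**
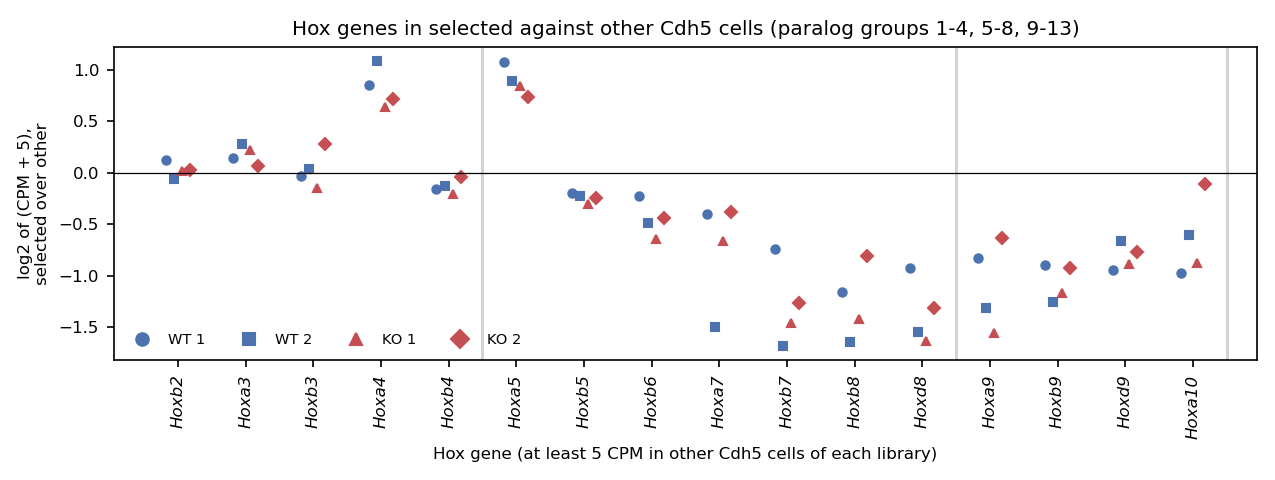
Log2 ratio of CPM plus 5 in selected over other Cdh5 cells for 16 Hox genes with at least 5 CPM in the other Cdh5 cells of each library, by library (WT blue, KO red), with grey lines between the paralog groups. Hoxa4 and Hoxa5 lie above 0 in each library, and Hoxb7, Hoxb8, Hoxd8, Hoxa9, Hoxb9 and Hoxd9 lie below 0.

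The marker lists showed that the selected cells were not of 1 kind. Sinusoidal-like cells were defined by UMIs of at least 2 of Oit3, Stab2 and Lyve1. Of the selected cells, 64.5% and 36.6% (WT) and 48.8% and 33.9% (KO) met that definition, against 7.34% to 13.6% of the other Cdh5 cells. In all, 204 of the 468 met it. Tbx20 was detected in 136 of the 468 cells, and 27 cells had both. Of all selected cells, 47 carried both Gja4 and Gja5, and 78 carried Prox1. Both counts were made whether or not the cells were sinusoidal-like or had Tbx20.

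For description, and with the division made after values were seen, the selected cells were parted into 136 with Tbx20, 177 that were sinusoidal-like without Tbx20 and 155 with neither. No test was run on this division. By library the cells with Tbx20 numbered 15, 56, 22 and 43, the sinusoidal-like cells 55, 59, 33 and 30, and the rest 23, 68, 25 and 39. As a share of Cdh5 cells, those with Tbx20 were 0.739%, 0.789%, 0.620% and 0.728%, and the sinusoidal-like cells were 2.71%, 0.832%, 0.930% and 0.508%. WT replicate 1, the deepest library, was high in the sinusoidal-like share and level with the others in the share with Tbx20.

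Some endocardial genes, named here after their values were seen, were higher in the cells with Tbx20 than in the sinusoidal-like selected cells. Hand2 was at 34.8, 73.4, 27.8 and 63.6 CPM there, against 1.09 to 5.12 CPM in the sinusoidal-like selected cells. Gata5 was at 8.71, 40.6, 10.4 and 28.6 CPM against 0 to 0.931 CPM, and Gata6 at 76.7, 91.6, 69.6 and 45.3 CPM against 5.45 to 13 CPM. Npr3 was at 48.8, 217, 76.5 and 107 CPM against 8.26 to 30.2 CPM. For these 4 genes the ranges did not overlap between the sets. This did not hold for Gata5 and Gata6 once cells with mesenchyme genes were left out, as given below. The 4 were picked from the lists of 17 and 20 endocardial genes, and the direction of the other list genes was not counted. Gata4 itself did not follow them, at 69.9 to 108 CPM with Tbx20 and 60.5 to 91.6 CPM in the sinusoidal-like cells.

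Fn1, which encodes the matrix protein fibronectin, was at 573, 1835, 1189 and 1223 CPM in the cells with Tbx20 against 119 to 267 CPM in the sinusoidal-like selected cells. Oit3 went the other way, at 80.2 to 183 CPM against 238 to 362 CPM, as did Stab2, at 26.1 to 59.2 CPM against 81.7 to 149 CPM. Oit3, Stab2 and Lyve1 defined the sinusoidal-like cells, so their levels there describe that choice. Bmp2 was at 18.1 to 33.0 CPM with Tbx20 against 57.8 to 84.2 CPM. Lyve1 overlapped, at 29.6 to 99.3 CPM against 52.3 to 187 CPM.

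The cells with neither mark lay in between for Gata5 and Fn1 in each library and for Gata6 in 3 of the 4. Their Gata6 was at 29.8, 35.8, 29.5 and 56.7 CPM and their Fn1 at 468, 1254, 588 and 979 CPM. Their Stab2 was at 1.40 to 3.44 CPM, in cells chosen as not sinusoidal-like. Gata5 there was at 4.97, 15.8, 4.21 and 21.7 CPM. Over the whole lists the cells with neither mark did not lie lower throughout. The 17 endocardial transcription factors summed to 988, 1117, 998 and 923 CPM in them and to 879.9, 1099.6, 1003 and 822 CPM in the cells with Tbx20, so the cells with neither mark were higher in 3 of the 4 libraries. In the sinusoidal-like selected cells that sum was 517 to 787 CPM. The 20 surface and secreted genes summed to 1408 to 1823 CPM with neither mark, 1620 to 1979 CPM with Tbx20 and 1161 to 1522 CPM in the sinusoidal-like cells.

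Levels in sets of Cdh5 cells outside the rule are given for comparison, and their likeness to the selected cells was not ranked. Sinusoidal-like Cdh5 cells outside the rule numbered 1542, and their Gata4 was at 28.4 to 37.9 CPM and their Bmp2 at 52.2 to 67.5 CPM. Their Oit3, a gene of their definition, was at 208 to 238 CPM. Their Hand2, at 0.840 to 1.5 CPM, and their Gata6, at 9.63 to 10.2 CPM, were near the levels of all other Cdh5 cells. Arterial-like cells outside the rule, 2499 in number, had Gata6 at 38.8 to 54.8 CPM, Npr3 at 102 to 128 CPM and Fn1 at 499 to 593 CPM. In the cells with Tbx20, Gata6 and Npr3 fell within these ranges in KO replicate 2 alone. Fn1 did so in WT replicate 1 alone and was higher in the other libraries. Arterial-like cells had Gata5 at 0.107 to 0.593 CPM, Hand2 at 0.830 to 2.03 CPM and Gata4 at 0.534 to 2.49 CPM.

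**Figure D4:**
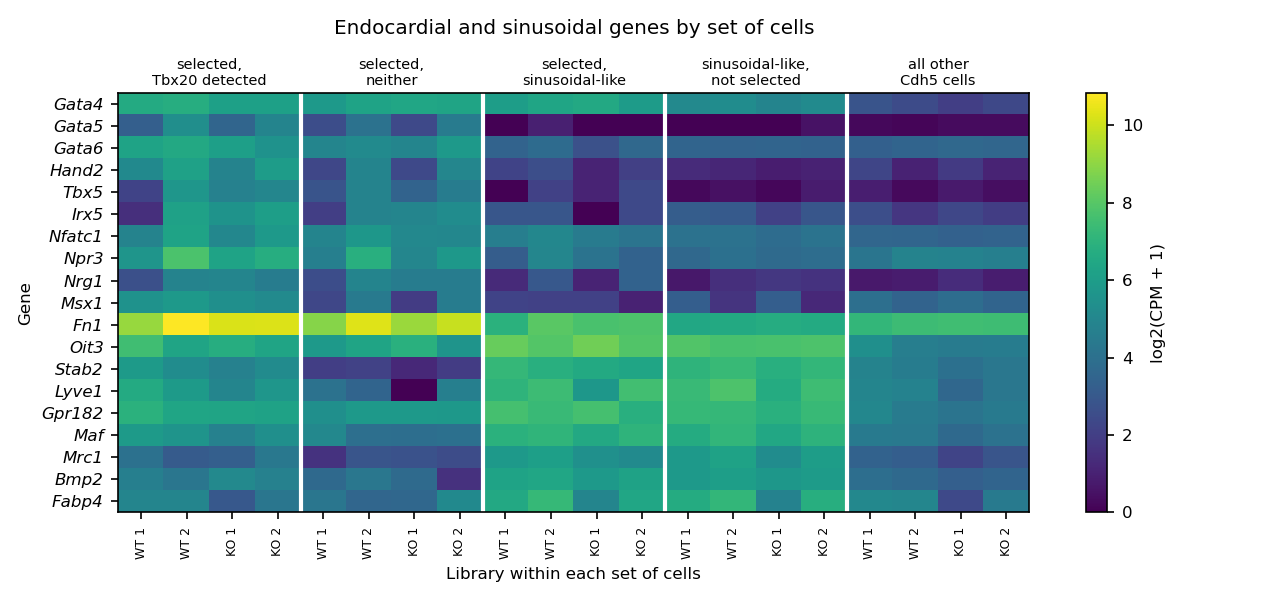
Levels, as log2(CPM + 1), of endocardial genes (upper rows) and sinusoidal genes (lower rows) in each library for the 3 sets of selected cells, for sinusoidal-like cells outside the rule and for all other Cdh5 cells. Hand2, Gata5 and Fn1 are brighter with Tbx20 than in the sinusoidal-like selected cells, where Oit3 and Stab2 are brighter. Oit3, Stab2 and Lyve1 defined the sinusoidal-like cells.

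Among the 3 sets of selected cells, genes of mesenchyme had their highest sum in the cells with Tbx20 in each library. The 10 mesenchyme genes summed to 2502, 370, 1381 and 790 CPM in those cells and to 112, 67.4, 53.3 and 259 CPM in the cells with neither mark. They summed to 19.1 to 87.2 CPM in the sinusoidal-like selected cells and 25.7 to 120 CPM in the other Cdh5 cells. Collagens were highest: Col3a1 was at 580, 135, 426 and 172 CPM with Tbx20 against 3.18 to 16.4 CPM. Of all selected cells, 35 carried at least 4 of the 10 genes, 17 of them with Tbx20, and in KO replicate 1 a single cell held 81.2% of the Col1a2 UMIs. With these cells left out, Col3a1 in the cells with Tbx20 was at 17.8, 95.7, 27.8 and 62.6 CPM. Fn1 was then at 652, 1869, 1135 and 1460 CPM. The part of mesenchyme RNA in the other results on the cells with Tbx20 was not tested further than by leaving these cells out.

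The endocardial factors depended on those cells in WT replicate 1, and Gata6 and Hand2 did so in part in KO replicate 1. Without them, 10, 53, 20 and 36 cells with Tbx20 remained. Gata6 was then at 8.89 CPM in WT replicate 1 and at 88.1, 36.3 and 36.4 CPM in the other libraries, and Hand2 at 8.89, 61.3, 15 and 51.2 CPM. Gata5 had no UMI in the 10 cells of WT replicate 1 and was at 40.2, 12.8 and 36.4 CPM in the others. In WT replicate 1 the levels of Gata5, Gata6 and Hand2 thus came mostly from cells with mesenchyme genes. Gata5 and Gata6 then lay within the ranges given above for the sinusoidal-like selected cells, and Hand2 did not. In KO replicate 1, leaving out 2 of the 22 cells took Hand2 from 27.8 to 15 CPM. Gata6 fell there too, to 36.3 CPM, and Gata5 did not. In WT replicate 2 and KO replicate 2, Gata6 and Hand2 fell less.

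KO and WT libraries were compared within the selected cells, on the UMI counts of each library summed over its selected cells, with edgeR's quasi-likelihood test. No gene of 10717 passed an adjusted p of 0.05 (0 called, 0.0%), although 83 genes were higher and 89 lower at an unadjusted p under 0.05, and DESeq2 called 5. Leaving out a single library gave 4, 1, 3 and 2 calls. For 22.8% of the genes both KO libraries lay above or below both WT libraries. The median log2 change over all genes was 0.01.

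Of the 7 genes that the rule uses, Cdh5 included, 2 had KO and WT libraries that did not overlap, Pdlim3 and Cdh5, beside the 22.8% of all genes, and none passed the test. The KO libraries of Pdlim3, at 98.0 and 103 CPM, lay above the WT libraries, at 60.7 and 80.4 CPM, with a log2 change of 0.51 (SE 0.20, edgeR adjusted p = 1.0). Cdh5 was at 444 and 405 CPM in WT and 382 and 389 CPM in KO (-0.13, SE 0.15, adjusted p = 1.0). The rule counts UMIs of these genes, so their levels in the selected cells are not free of the choice. Fst had a log2 change of -0.78 (SE 0.47), which was -1.20 without WT replicate 1, -0.18 without WT replicate 2, -0.30 without KO replicate 1 and -1.71 without KO replicate 2. Tbx20 had 0.43 (SE 0.58), which was -0.23 without WT replicate 1 and 1.74 without WT replicate 2. In both the libraries of the genotypes overlapped. Gata4 (0.00, SE 0.22), Ednrb (0.00, SE 0.22) and Tnni1 (-0.08, SE 0.40) overlapped too.

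By the rule for named genes, the 3 genes of smallest p in each direction are given as values. They were chosen on the selected cells, so a parting by genotype there describes that choice. The call depended on the tool and on the filter. DESeq2 called Wdfy1, Tagln, Ncam1, Rps2 and Mxra7 (adjusted p from 2.95e-08 to 0.0372) but not Rnaset2b (0.106), and edgeR with no count filter called all 6 (adjusted p from 8.46e-19 to 7.71e-05). Among cells with at least 2 rule genes edgeR called Wdfy1, Mxra7 and Rnaset2b (adjusted p from 0.0405 to 0.0497). Wdfy1, which encodes an endosomal protein that binds phosphoinositides, was at 6.18 and 7.14 CPM in the selected cells of WT and 30.4 and 47.9 CPM in those of KO (log2 change 2.56, SE 0.30, edgeR adjusted p = 0.165). Without KO replicate 1 it passed (2.82, adjusted p = 0.0223). In the other Cdh5 cells it was at 9.46 and 9.96 CPM in WT and 50.4 and 52.0 CPM in KO (2.41, SE 0.13), where edgeR called it (adjusted p = 0.0103) among 4 of 15772 genes (0.0254%), 2 of them higher (0.0127%) and 2 lower (0.0127%). Mxra7 was at 52.0 and 47.3 CPM in WT and 17.2 and 11.7 CPM in KO (-1.80, SE 0.26, adjusted p = 0.273), and was called in the other Cdh5 cells (-2.05, SE 0.13, adjusted p = 0.0103). Rnaset2b, whose reads may be shared with its near copy Rnaset2a, had 47 and 49 UMIs in WT and 0 and 3 UMIs in KO (adjusted p = 0.355), and it was called in the other Cdh5 cells (-3.29, SE 0.19, adjusted p = 0.0103). These 3 genes thus had log2 changes of the same sign in both sets of cells, and the test of the difference between the sets passed for none of them (edgeR adjusted p = 1.0 each).

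Rps2, a ribosomal protein gene with many processed copies in the genome, was at 6528 and 6226 CPM in WT and 3636 and 3094 CPM in KO (-0.92, SE 0.13, edgeR adjusted p = 0.273). Ncam1, a neural cell adhesion gene, was at 19.9 and 25 CPM in WT and 52.2 and 64.1 CPM in KO (1.38, SE 0.23, adjusted p = 0.436). A single cell gave 33.0% of its UMIs in KO replicate 1 and 40.2% in KO replicate 2. Tagln, a smooth muscle actin-binding gene, was at 6.64 and 5.04 CPM in WT and 88.9 and 30.1 CPM in KO (3.33, SE 0.53, adjusted p = 0.436). In KO replicate 1 a single cell held 185 of its 196 UMIs, and without KO replicate 2 the gene passed (3.92, edgeR adjusted p = 7.56e-05). With the cells of at least 4 mesenchyme genes left out the log2 change was -0.54.

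**Figure D5:**
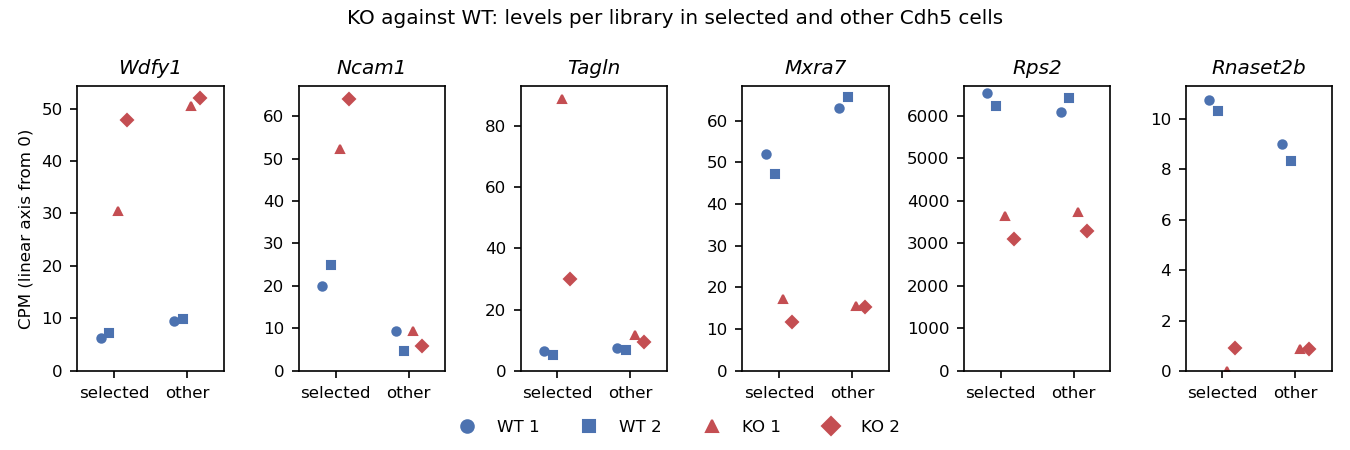
CPM of the 3 genes with the smallest p in each direction, in selected and other Cdh5 cells of each library (WT blue, KO red, linear axes from 0). Wdfy1, Mxra7, Rps2 and Rnaset2b are parted by genotype in both sets, and Ncam1 and Tagln in the selected cells, where Tagln reached 88.9 CPM in KO replicate 1. The genes were chosen by their p in the selected cells, so their parting there describes that choice.

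The gene lists were followed across genotypes as counts, none with a member that passed the edgeR test. Over all 10717 genes tested, 5613 had positive and 5104 negative log2 changes. All 6 tested sinusoidal genes had a lower level in KO than in WT, with a median log2 change of -0.71, and in 5 of the 6 the libraries of the genotypes did not overlap, beside 22.8% of all genes. Stab2, which encodes a scavenger receptor, was at 104 and 62.0 CPM in WT and 46.3 and 38.7 CPM in KO (-0.96, SE 0.27, adjusted p = 1.0), and Mrc1 was at 39.2 and 34.9 CPM in WT and 21.8 and 19.0 CPM in KO (-0.86, SE 0.23, adjusted p = 1.0). The sinusoidal-like share of the selected cells, given above, was highest in WT replicate 1, and its part in these values was not tested. In the other Cdh5 cells the log2 change was -0.57 for Stab2 and -0.85 for Mrc1, and the difference between the sets passed for neither.

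Of 13 tested Notch pathway genes, 11 had negative log2 changes (median -0.32), and of 15 pan-endothelial genes, 14 (median -0.17). The libraries of the genotypes did not overlap in 4 of the 13 and in 7 of the 15, beside 22.8% of all genes. All 10 mesenchyme genes had positive ones (median 0.50), but in only 1 of the 10 did the libraries not overlap. Their sum was 410.4 and 122 CPM in WT and 394 and 394 CPM in KO, so WT replicate 2 alone was low and WT replicate 1 was above both KO libraries. The endocardial transcription factors were 10 positive and 5 negative (median 0.14), and the endocardial surface and secreted genes 11 and 5 (median 0.10). Of 30 tested genes described as miR-223 targets, 19 were positive and 11 negative (median 0.03). None of these members passed.

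Genes with the miR-223 seed match in a 3' UTR and genes without it had close medians. The median log2 change was 0.02 over 1248 tested genes with a match and 0.01 over 9242 without, and 0 were called in either. Igfbp5, with the site printed above, was at 101 and 89.3 CPM in WT and 155 and 103 CPM in KO (0.43, SE 0.22, edgeR adjusted p = 1.0). Maf was at 92.1 and 78.1 CPM in WT and 49.9 and 59.2 CPM in KO (-0.63, SE 0.20, adjusted p = 1.0).

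The genotype effect in the selected cells was then tested against the genotype effect in the other Cdh5 cells of the same libraries. Of 14927 genes, 7 passed the edgeR interaction test (0.0469%), 5 with the larger KO minus WT change in the selected cells (0.0335%) and 2 with the smaller (0.0134%). Among the 5 were Tpm1, Col1a2, Dlk1 and Tpm2, and the 2 were Phlda2 and Gja4. Tpm1, an actin-binding tropomyosin gene, was at 139 and 150 CPM in the selected cells of WT and 230 and 295 CPM in those of KO, against 121 and 171 CPM and 122 and 149 CPM in the others (difference of log2 changes 0.93, SE 0.12, adjusted p = 0.000118). A single cell gave 32.5% and 31.5% of its UMIs in KO replicates 1 and 2. With the 35 selected cells of at least 4 mesenchyme genes left out, the difference for Tpm1 was 0.08 and no longer passed. The 466 other Cdh5 cells with at least 4 of these genes were kept.

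Gja4, which encodes the arterial gap junction protein connexin 37, was detected in 29 to 74 selected cells per library, and a single cell gave 9.12% to 15.6% of its UMIs. It was at 71.5 and 76.0 CPM in the selected cells of WT and 49.0 and 62.9 CPM in those of KO, against 100 and 115 CPM and 121 and 131 CPM in the others (difference -0.64, SE 0.13, adjusted p = 0.0307). Both KO libraries were below both WT libraries in the selected cells and above both in the others. Leaving out the cells with mesenchyme genes left it at -0.69, but it no longer passed without the called doublets (-0.33, edgeR adjusted p = 1.0), without WT replicate 1 (-0.59, adjusted p = 0.303) or without KO replicate 1 (-0.56, adjusted p = 0.0696). It also did not pass by DESeq2 (-0.65, adjusted p = 0.251) or with thinned sums (-0.72, edgeR adjusted p = 0.577). Leaving out a single library moved the number of genes past the interaction test to 36, 76, 63 and 23.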

How the data were processed

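The values used are UMI counts, not normalised, in gene by barcode matrices deposited by the authors and written by Cell Ranger 3.1.0, per the file headers. Seurat 4 is also named in the submitters' processing notes. The genome build and the annotation were not given in the sources used here. The counts cover 31053 genes.

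The members, gene lists and tests were chosen with earlier results of these data known. UMI counts of the cells of a set were summed per library and tested with edgeR 4.0.16 (quasi-likelihood, robust, filterByExpr, TMM) in R 4.3.3, with Benjamini-Hochberg adjustment over all genes tested and a threshold of 0.05. The interaction fit held the library as a block. The edgeR step was tested on simulated data. Shares were compared by an exact permutation test over libraries. Ratios of selected to other cells use CPM plus 5 and carry no test.

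Named genes were the rule genes and the lists for endocardial, cardiomyocyte, endothelin, GATA and T-box genes, the 25 highest and 15 lowest genes of at least 20 CPM outside the rule ranked by their least extreme library, the 3 of smallest p in each direction between genotypes, and those past the interaction test, of which 1 is not reported here. Doublet scores came from comparison with 2 simulated pairs per cell, at 0.8% per 1000 barcodes. The alternatives were DESeq2 1.42.0, no count filter, thinned sums, other limits of the rule, a replicate block and each library left out. Selected cells with at least 4 of 10 mesenchyme genes were left out in an alternative chosen after seeing the data. Such cells among the other Cdh5 cells were kept. Sequences come from RefSeq (GRCm38.p6) and GENCODE M21.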

Additional observations from a re-analysis of the deposited data

Results flagged for a closer look

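In 7 genes the KO minus WT change differed between the selected and the other Cdh5 cells by the edgeR interaction test. For the 6 genes described here, the differences of the log2 changes were 0.93 for Tpm1, 1.49 for Col1a2, 1.29 for Dlk1, 1.36 for Tpm2, -2.28 for Phlda2 and -0.64 for Gja4, with adjusted p from 0.000118 to 0.0307.

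Several of these values came from few cells. A single cell gave 81.2% and 40.3% of the Col1a2 UMIs, 52.9% and 17.6% of the Dlk1 UMIs and 53.3% and 42.9% of the Tpm2 UMIs in KO replicates 1 and 2. Phlda2 had 55 and 22 UMIs in WT and 6 and 11 UMIs in KO, in 2 to 6 cells per library. Col1a2 was at 71 and 13 CPM in the selected cells of WT and 69.9 and 57.1 CPM in those of KO, against 17.9, 4.09, 8.32 and 4.40 CPM in the other Cdh5 cells, so WT replicate 2 alone was low. With only the selected cells of at least 4 mesenchyme genes left out, Gja4 passed and the other 5 did not. The difference was then 0.08 for Tpm1, -0.73 for Tpm2 and -0.49 for Col1a2, while it was 1.05 for Dlk1 and -5.49 for Phlda2, a fitted value from few UMIs.

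The calls also depended on the tool and on single libraries. DESeq2 called Tpm1, Col1a2 and Dlk1 but not Phlda2 (adjusted p = 0.347), Tpm2 (0.153) or Gja4 (0.251). Phlda2 did not pass edgeR without WT replicate 1 (-1.68, adjusted p = 0.336) or without the called doublets (-2.95, adjusted p = 1.0). With thinned sums, Tpm1 was the only one of the 6 past the edgeR test (0.97, adjusted p = 0.00266).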

How the results depend on the processing

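The lower share of selected cells in KO kept its direction under every alternative run. The difference went from -0.0565 points at 5000 UMIs per cell to -4.77 points with at least 2 rule genes. With a single library left out it was -0.504 to -2.51 points. All runs reuse the same 4 libraries, so the kept sign adds no independent support. At 5000 UMIs per cell, WT replicate 1 (0.527%) and KO replicate 2 (0.526%) were nearly level. With a replicate block the difference was -1.51 points, the replicate numbers giving -2.33 and -0.683 points. The labels do not say that the numbers pair libraries. Deviations from the group mean of same-numbered libraries correlated across 2912 genes (r = 0.593), and 2 pairs cannot settle a pairing.

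Between genotypes in the selected cells, edgeR called 0 genes, but 4 with at least 2 rule genes, 5 by DESeq2, 41 with no count filter, 9 with the replicate block (among them Wdfy1, Tagln, Rps2, Mxra7 and Ncam1) and 1 to 4 with a library left out. The 7 interaction genes became 6 by DESeq2 (3 of them among the 7), 34 with no count filter, 2 with thinned sums, 4 with the mesenchyme cells left out and 23 to 76 with a library left out. The 94 genes past 2-fold became 49 with at least 2 rule genes, 210 with a pseudocount of 1 CPM, 30 against sinusoidal-like cells and 98 to 142 with a library left out. The cause of these moves was not tested.

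Some log2 changes reversed their sign. Ednrb was at -0.080 without doublets, -0.32 with at least 4 rule genes, -0.00021 by DESeq2, -0.017 with no filter and -0.28 to 0.34 with a library left out. Gata4 was at -0.12, -0.41, -0.0014 and -0.019 under the same settings, -0.0026 with the replicate block and -0.19 to 0.20 with a library left out. Tnni1 was at 0.021 with thinned sums and -0.61 to 0.59 with a library left out, and Tbx20 at -0.23 to 1.74. With the mesenchyme cells left out, Tagln was at -0.54, Tpm2 at -0.73 and Col1a2 at -0.49. Depth limits the rule itself, since a gene is counted from 1 UMI.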
